A study of Mus musculus with 38 samples.

Results

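The genes described here are 10 mouse genes of mitophagy and autophagy, Bnip3, Bnip3l, Fundc1, Pink1, Sqstm1, Map1lc3b, Gabarapl1, Ulk1, Becn1 and Wipi1. They were taken by name and matched to their Ensembl identifiers among the 55487 genes of 3 tables of raw read counts, and all 10 were found and passed the filter on low counts in every fit. The libraries came from poly(A) RNA of cells kept for 16 h at 21% oxygen (normoxia) or under 0.1% oxygen (hypoxia) and fixed with glyoxal before RNA isolation. The co-culture experiment holds BV2, a mouse microglial cell line, and GL261, a mouse glioma line carrying the pEGFP-N1 vector, each grown alone or in direct contact with the other, with 2 GL261 cells seeded for each BV2 cell and 2 libraries for each of the 8 groups. Wild-type primary bone marrow-derived macrophages (BMDM) were grown alone (2 libraries at each oxygen level) or with GL261 at 1 tumour cell for each macrophage (3 libraries at each oxygen level), and their counts are in a table of their own. In the panobinostat experiment BV2 and wild-type BMDM without tumour cells received DMSO, the solvent, in normoxia or hypoxia, or, in hypoxia only, panobinostat at 10 nM (a histone deacetylase inhibitor), with 2 libraries a group. No normoxic group received panobinostat, and how the cell types were separated after co-culture is not given in the sources used here.

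Autophagy encloses cell material in a double membrane and delivers it to the lysosome, and mitophagy is its selective form for mitochondria. The ULK1 kinase starts the process, a lipid kinase complex built on Beclin 1 marks the forming membrane, WIPI proteins read that mark, and proteins of the ATG8 family (LC3 and GABARAP) are attached to the membrane, where cargo receptors bind them. BNIP3, BNIP3L (also called NIX) and FUNDC1 sit in the outer mitochondrial membrane and bind ATG8 proteins directly, while PINK1 labels damaged mitochondria with phosphorylated ubiquitin. Bnip3 and Bnip3l are textbook targets of the hypoxia-inducible factors, which bind DNA elements with the core ACGTG or GCGTG.

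In the GRCm38 annotation the 10 genes lie on 8 chromosomes. Bnip3 (ENSMUSG00000078566) is at chr7:138890836-138909519, Bnip3l (ENSMUSG00000022051) at chr14:66985239-67008877 and Fundc1 (ENSMUSG00000025040) at chrX:17556564-17572325, all on the minus strand. Pink1 (ENSMUSG00000028756) is at chr4:138313409-138326307 and Ulk1 (ENSMUSG00000029512) at chr5:110784488-110810097, both on the minus strand. Sqstm1 (ENSMUSG00000015837, chr11:50199366-50210827), Becn1 (ENSMUSG00000035086, chr11:101285952-101302286) and Wipi1 (ENSMUSG00000041895, chr11:109573331-109611967) share a chromosome and the minus strand without lying next to each other. Map1lc3b (ENSMUSG00000031812, chr8:121590361-121598760) and Gabarapl1 (ENSMUSG00000030161, chr6:129533160-129542346) are on the plus strand.

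Promoter sequence is shown for 3 of the genes, chosen after their values were seen. Bnip3 had the highest hypoxia fold change of the 10 in each cell type grown alone. Pink1 and Ulk1 were called in BV2 and not in GL261, and the difference between these cell types passed for both under every alternative run; Fundc1, also called in BV2 and not in GL261, is not shown because the 250 bases before its RefSeq start lie inside the annotated gene, and they hold neither ACGTG nor GCGTG. Each run is the 250 bases before the RefSeq start in GRCm38.p6, written 5′ to 3′ on the gene's strand, with ACGTG on either strand in capitals.
Bnip3, chr7:138909507-138909756, minus strand: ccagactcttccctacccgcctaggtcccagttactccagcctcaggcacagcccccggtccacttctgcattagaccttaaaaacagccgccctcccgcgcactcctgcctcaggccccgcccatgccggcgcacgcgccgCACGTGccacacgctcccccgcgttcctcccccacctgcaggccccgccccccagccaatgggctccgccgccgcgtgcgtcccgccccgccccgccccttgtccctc
Pink1, chr4:138326297-138326546, minus strand: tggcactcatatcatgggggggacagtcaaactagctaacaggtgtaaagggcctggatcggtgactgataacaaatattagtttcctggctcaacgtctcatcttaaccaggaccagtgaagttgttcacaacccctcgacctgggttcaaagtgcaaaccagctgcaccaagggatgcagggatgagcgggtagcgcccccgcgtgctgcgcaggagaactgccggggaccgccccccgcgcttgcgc
Ulk1, chr5:110810082-110810331, minus strand: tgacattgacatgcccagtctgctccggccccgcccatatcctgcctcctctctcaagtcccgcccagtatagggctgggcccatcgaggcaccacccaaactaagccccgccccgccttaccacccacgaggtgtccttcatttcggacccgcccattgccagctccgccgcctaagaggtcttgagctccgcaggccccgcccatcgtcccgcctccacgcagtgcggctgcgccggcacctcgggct
The capitals in the Bnip3 run are CACGTG, which reads ACGTG on both strands and begins 108 bases before the start. Of 8 genes with an entry (Bnip3, Fundc1, Pink1, Sqstm1, Map1lc3b, Gabarapl1, Ulk1 and Wipi1), ACGTG stood within the 250 bases of Bnip3 alone, against 16.6% of 32851 promoters of all genes, and CACGTG, which overlaps it, stood in 6.02% of all. The core GCGTG, on either strand, stood in 5 of the 8 (Bnip3, Pink1, Map1lc3b, Ulk1 and Wipi1) and in 28.2% of all promoters. The window of Wipi1, like that of Fundc1, lies wholly inside its annotated gene, and the others overlap theirs in part. These matches describe the letters of a short window and say nothing of binding.

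Bnip3 shares sequence with other genes, which bears on its counts. Of the 75-base words of the Bnip3 transcripts, 34.4% also occur in another gene. These are the lincRNA AC160336.1 with 20.4%, the antisense gene Gm45507 with 12.9% and the pseudogenes Gm16439 and Gm6532 with 8.72% and 7.43%. AC160336.1 was counted 149 to 293 times in every GL261 library, whatever the oxygen level, and at most 8 times in any BV2 or BMDM library. In normoxic GL261 it reached 90.4% of the Bnip3 count of the same library, and in hypoxia at most 3.47%. Gm16439 stayed at or below 2.31% of the Bnip3 count. Becn1 shares 33.6% of its words with Cntd1 on the other strand, Gabarapl1 20.5% with 1700101I11Rik, Bnip3l 16.9% with the pseudogene Bnip3l-ps and Sqstm1 14.6% with Mrnip on the other strand. Fundc1, Ulk1 and Wipi1 share none.

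The libraries held 9634700 to 27238900 reads counted in genes, so that 3 reads correspond to 0.110 to 0.311 in counts-per-million values (CPM). Levels below are CPM with trimmed-mean (TMM) scaling. Exceptions are the marker values and the amounts that RNA of the co-culture partner would add, which are CPM without that scaling. Myeloid markers summed to 3310 to 5280 CPM in BV2 without panobinostat, where the microglial marker Sall1 was under 1 CPM in every group, and the 9 markers summed to 1.84 to 4.20 CPM in GL261 alone, whose glial markers summed to 1840 to 2850 CPM. BMDM grown alone or with GL261 had 62.1 to 549 CPM of 5 fibroblast markers (Col1a1, Col1a2, Pdgfra, Pdgfrb and Dcn), but BMDM of the panobinostat experiment had 2580 to 19800 CPM, all 5 being above 1 CPM in each group. In these same 6 BMDM libraries the 9 myeloid markers summed to 5800 to 6760 CPM in normoxia and 2340 to 4280 CPM in hypoxia with DMSO. With panobinostat they summed to 603 to 1870 CPM. BMDM grown alone or with GL261, whose counts are in another table, had 5070 to 9360 CPM. The 4 macrophage markers (Adgre1, Mrc1, Cd14 and Lyz2) went the other way in normoxia, at 14500 to 23400 CPM with DMSO against 10100 to 11300 CPM alone. In hypoxia they summed to 2160 to 7850 CPM with DMSO and 837 to 3970 CPM with panobinostat. Hypoxic BMDM alone had 7160 to 9840 CPM. One library stands apart in its group: the normoxic DMSO macrophages numbered 1 had higher levels than those numbered 2 for all 8 hypoxia reference genes (Vegfa 396 against 139 CPM, Egln3 92.5 against 6.24 CPM). Transcripts of the co-culture partner made up an estimated 0.568 to 2.36% of co-cultured BV2 libraries, 0.218 to 0.915% of co-cultured GL261 and 1.29 to 6.28% of co-cultured BMDM. In such bulk libraries, fewer cells of a type and less RNA per cell cannot be told apart.

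Hypoxia raised most of the 10 genes in each cell type grown alone, with Bnip3 far ahead. In BV2, 9 of the 10 rose and none fell, where 30.9% of the 14432 genes tested rose and 31.0% fell. In GL261, 6 rose (23.2% of 15189 genes) and none fell (21.4%), and in BMDM 7 rose (13.3% of 14806 genes) and none fell (10.6%) (edgeR adjusted p under 0.05). The median log2 fold change of the 10 reached 1.56 in BV2, then 0.98 for BMDM and 0.52 for GL261, beside 0.00, 0.03 and -0.03 over all genes tested. Bnip3, Bnip3l, Sqstm1, Map1lc3b, Gabarapl1 and Wipi1 passed the threshold in all 3 cell types, Pink1 in BV2 and BMDM, Fundc1 and Ulk1 in BV2, and Becn1 in none.

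**Figure D1:**
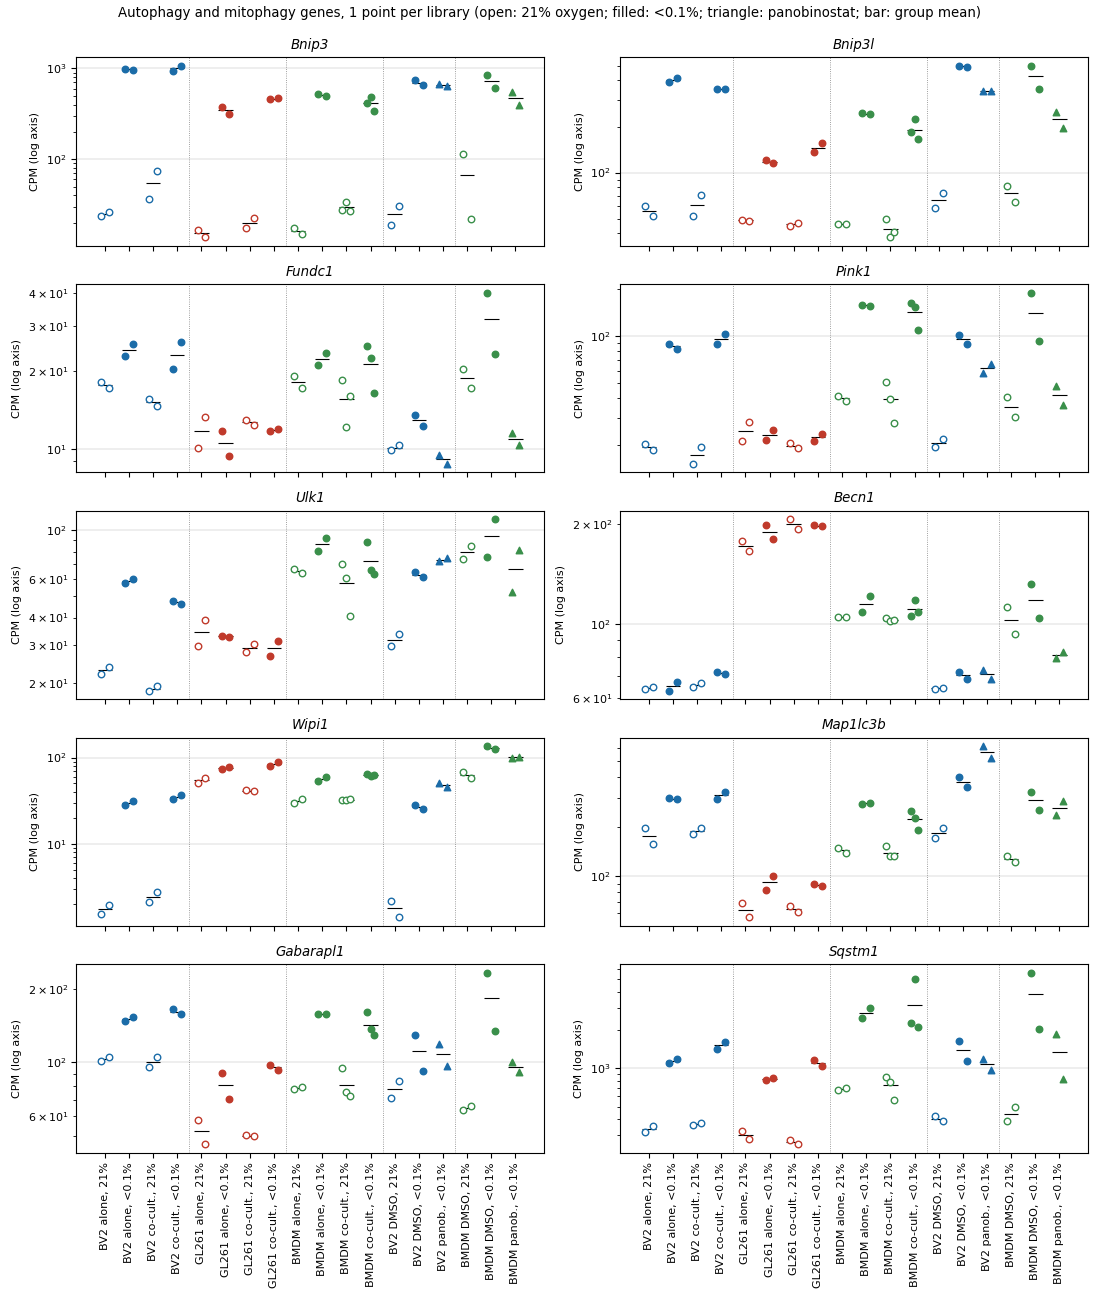
Level of each of the 10 genes in every library, in CPM on a log axis, by group; open symbols are 21% oxygen, filled symbols under 0.1%, triangles panobinostat, and bars group means. Bnip3 stands at 13.9 to 113 CPM in all normoxic libraries and at 317 to 1064 CPM in all hypoxic ones, while Becn1 moves little with oxygen.

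Among the mitophagy receptors, Bnip3 was at 23.8 and 26.6 CPM in normoxic BV2 and at 981 and 969 CPM in hypoxic BV2. The log2 fold change, given here and below with its standard error, was 5.28 ± 0.25 (edgeR adjusted p = 1e-10). In GL261 it went from 16.6 and 13.9 CPM to 371 and 317 CPM (log2 fold change 4.50 ± 0.18, edgeR adjusted p = 1.6e-07), and in BMDM from 17.4 and 15.2 CPM to 516 and 494 CPM (4.95 ± 0.23, edgeR adjusted p = 2.66e-06). Normoxic and hypoxic libraries were far apart in all 3. With AC160336.1 and the related pseudogenes added to the Bnip3 count, an alternative chosen after seeing the data, the GL261 log2 fold change was 3.66, while BV2 stayed at 5.27 and BMDM at 4.95.

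Bnip3l, the closest relative of Bnip3, rose less. Its levels were 60.1 and 52.3 CPM against 392 and 415 CPM in BV2 (log2 fold change 2.84 ± 0.14, edgeR adjusted p = 2.03e-10). GL261 gave 49.1 and 48.3 CPM against 120.0 and 115 CPM (1.27 ± 0.12, edgeR adjusted p = 2.11e-05), and BMDM 45.8 and 46.4 CPM against 245 and 241 CPM (2.40 ± 0.19, edgeR adjusted p = 2.37e-05). Normoxic levels of Bnip3l thus lay between 45.8 and 60.1 CPM in all 3 cell types, and no groups overlapped. Fundc1, whose protein is a receptor of the same kind, was low throughout. In BV2 it was at 18.2 and 17.2 CPM in normoxia and 23.0 and 25.5 CPM in hypoxia, a small rise without overlap (log2 fold change 0.45 ± 0.14, edgeR adjusted p = 0.0106) that missed the threshold without the normoxic or the hypoxic library numbered 2 (edgeR adjusted p = 0.0659 and 0.0671, over a range of 0.00344 to 0.0671 across alternatives). Fundc1 groups overlapped in GL261, at 10.1 and 13.3 against 11.8 and 9.42 CPM. In BMDM the levels were 19.2 and 17.3 against 21.2 and 23.6 CPM (0.30 ± 0.24, edgeR adjusted p = 0.401).

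Pink1, the kinase that marks damaged mitochondria, rose in BV2 and BMDM. It was at 20.5 and 18.7 CPM in normoxic and 88.6 and 83.0 CPM in hypoxic BV2 (log2 fold change 2.13 ± 0.14, edgeR adjusted p = 2.35e-09), and at 41.4 and 38.3 against 158 and 155 CPM in BMDM (1.98 ± 0.27, edgeR adjusted p = 0.00076). In GL261 its 21.2 and 28.1 CPM in normoxia enclosed the hypoxic 21.5 and 25.1 CPM (-0.08 ± 0.17, edgeR adjusted p = 0.719). Sqstm1 encodes p62, the cargo receptor that links ubiquitin-marked material to ATG8 proteins, and it had the highest CPM of the 10 genes in every normoxic group. Its levels went from 317 and 350.3 to 1094 and 1186 CPM in BV2 (1.77 ± 0.12, edgeR adjusted p = 4.8e-09) and from 321 and 279 to 815 and 836 CPM in GL261 (1.46 ± 0.14, edgeR adjusted p = 1.89e-05). In BMDM Sqstm1 stood at 673 and 694 CPM in normoxia and 2465 and 3002 CPM in hypoxia (2.00 ± 0.38, edgeR adjusted p = 0.00434). No Sqstm1 groups overlapped, and the BMDM call was lost without the normoxic library numbered 1 (1.91, edgeR adjusted p = 0.0508). The gene Mrnip, which overlaps Sqstm1 on the other strand, was counted at no more than 8.45% of it in any library.

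Both ATG8 genes among the 10 rose in each of the 3 cell types. Map1lc3b, which encodes LC3B, was at 196 and 157 CPM in normoxic and 299 and 293 CPM in hypoxic BV2 (log2 fold change 0.74 ± 0.12, edgeR adjusted p = 5.29e-05). GL261 had 69.1 and 56.5 against 83.0 and 101 CPM (0.55 ± 0.14, edgeR adjusted p = 0.00897), and BMDM 149 and 138 against 275 and 278 CPM (0.94 ± 0.16, edgeR adjusted p = 0.00265). The groups were apart in each case, but the GL261 call was lost without the normoxic library numbered 2 (0.45, edgeR adjusted p = 0.0574). Gabarapl1, of the GABARAP branch, was at 101 and 105 against 148 and 154 CPM in BV2 (0.55 ± 0.11, edgeR adjusted p = 0.000273). It was at 57.9 and 46.1 against 90.6 and 70.9 CPM in GL261 (0.64 ± 0.15, edgeR adjusted p = 0.00565), and at 78.0 and 79.0 against 158 and 158 CPM in BMDM (1.01 ± 0.17, edgeR adjusted p = 0.00245). Again no group overlapped another.

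Ulk1, Becn1 and Wipi1 act at the start of the autophagosome. Ulk1, the initiating kinase, was at 22.2 and 23.8 CPM in normoxic and 57.5 and 59.7 CPM in hypoxic BV2 (log2 fold change 1.35 ± 0.11, edgeR adjusted p = 4.64e-08). In GL261 the 29.7 and 38.9 CPM of normoxia overlapped the hypoxic 33.0 and 32.7 CPM, and in BMDM 66.7 and 63.7 CPM stood below 80.2 and 92.4 CPM without passing the threshold (0.40 ± 0.24, edgeR adjusted p = 0.248). A fit of those 2 BMDM groups alone called it (0.38, edgeR adjusted p = 0.0173, over a range of 0.0173 to 0.627 across alternatives). Becn1, the scaffold of the lipid kinase complex, showed no call, with 63.9 and 64.8 against 63.2 and 67.3 CPM in BV2, 178 and 166 against 198 and 181 CPM in GL261, and 105 and 105 against 109 and 122 CPM in BMDM. Its largest log2 fold change among these was 0.14 ± 0.12.

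Wipi1, which binds the lipid that the Beclin 1 complex makes, had its highest fold change in BV2. There it was at 1.53 and 1.96 CPM in normoxia and 28.3 and 31.6 CPM in hypoxia (log2 fold change 4.10 ± 0.18, edgeR adjusted p = 7.48e-11). GL261 already had 50.7 and 57.8 CPM in normoxia and reached 74.1 and 77.5 CPM (0.48 ± 0.13, edgeR adjusted p = 0.00883, lost without the normoxic library numbered 1 at 0.0692), and BMDM went from 30.0 and 32.8 to 53.3 and 59.6 CPM (0.85 ± 0.13, edgeR adjusted p = 0.00151). Hypoxic BV2 thus ended below the normoxic level of GL261.

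**Figure D2:**
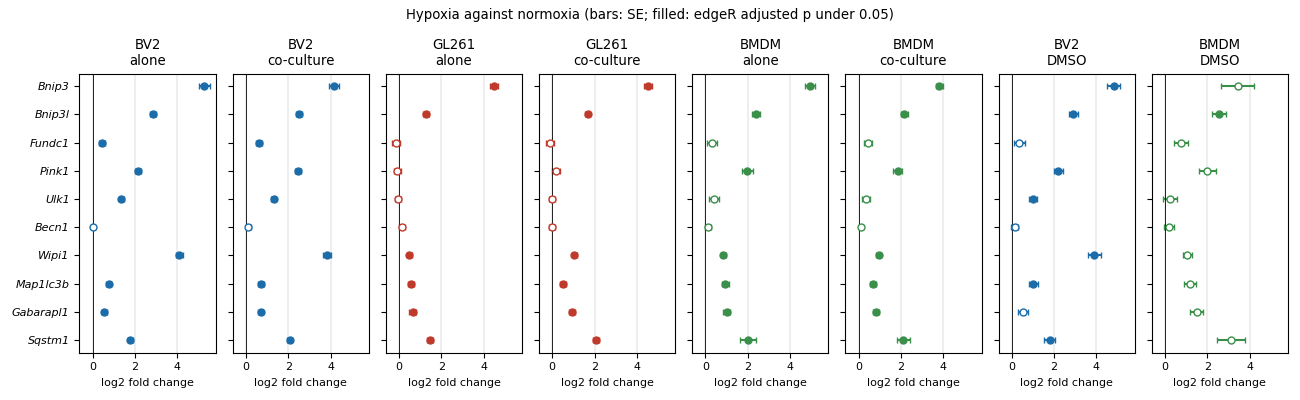
Log2 fold change of hypoxia against normoxia for each gene in 8 comparisons, with bars of 1 SE; filled points passed an edgeR adjusted p of 0.05. Bnip3 has the highest value in each panel, 5.28 in BV2 alone, and Becn1 lies near 0 throughout.

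Levels were also divided by the merged length of all annotated exons of a gene, in kilobases. The length of the transcripts expressed is not known here, so the order of genes can depend on this choice. On this scale Sqstm1 was the most abundant of the 10 in normoxia, at 99.4 CPM per kb in BV2, 89.4 in GL261 and 204 in BMDM (means of 2 libraries). Bnip3 was at 11.1, 6.72 and 7.19 CPM per kb in the same groups. In hypoxia Bnip3 reached 430.0 CPM per kb in BV2, above Sqstm1 at 340, but in CPM without division by length Sqstm1 was the higher there. In GL261 (152 against 246) and BMDM (223 against 814) Sqstm1 remained the higher per kb. Fundc1 was at 4.51 to 10.3 CPM per kb in these 6 groups.

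The size of the hypoxia effect differed between BV2 and GL261 for 6 of the 10 genes, all with the larger rise in BV2, where 18.7% of 16882 genes differed in that direction. The difference in log2 fold change was 3.72 ± 0.22 for Wipi1 (edgeR adjusted p = 2.56e-09), 2.31 ± 0.22 for Pink1 (2.93e-07), 1.67 ± 0.19 for Bnip3l (1.96e-06) and 1.51 ± 0.19 for Ulk1 (6.65e-06). These 4 calls held without any 1 library. For Bnip3 it was 0.88 ± 0.31 (edgeR adjusted p = 0.0309), which ranged from 0.000168 to 0.156 over the alternatives and was lost without any 1 of 11 libraries; without the normoxic GL261 library numbered 1 it was 0.68, and with the related genes added to Bnip3 it was 1.71. For Fundc1 it was 0.69 ± 0.24 (edgeR adjusted p = 0.0309), which also ranged up to 0.32 and fell to 0.37 without the normoxic GL261 library numbered 2. Sqstm1 (0.41 ± 0.18, edgeR adjusted p = 0.0758), Map1lc3b (0.29 ± 0.19), Gabarapl1 (0.01 ± 0.18) and Becn1 (-0.02 ± 0.15) did not pass. The median of this difference over all genes was 0.15, and 0.04 when only genes with a mean of at least 5 CPM were kept.

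Levels in normoxia also differed between BV2 and GL261. Relative to GL261, Map1lc3b (log2 difference 1.61 ± 0.14), Gabarapl1 (1.10 ± 0.13), Bnip3 (0.84 ± 0.23), Fundc1 (0.71 ± 0.17) and Bnip3l (0.32 ± 0.13) were higher in BV2, 5 of 10 beside 33.8% of all genes. Lower in BV2 were Wipi1 (-4.84 ± 0.17), Becn1 (-1.30 ± 0.11) and Ulk1 (-0.46 ± 0.14), 3 of 10 beside 39.4%. With AC160336.1 and the pseudogenes added, the Bnip3 difference was -0.04 (edgeR adjusted p = 0.865), so its call depends on whether those genes are added. The Ulk1 call was lost without the normoxic GL261 library numbered 2 (-0.24, edgeR adjusted p = 0.174), and that of Bnip3l under 15 alternatives, among them DESeq2 (0.29, adjusted p = 0.0527).

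Hypoxia was also compared with normoxia in cells taken from co-culture. Of the 10, 9 rose in BV2 (35.2% of all genes), 6 in GL261 (26.8%) and 7 in BMDM (17.5%), with medians of 1.68, 0.71 and 0.88 beside 0.04, -0.04 and 0.03 over all genes. Bnip3 was at 36.5 and 73.2 against 930.0 and 1064 CPM in BV2 (log2 fold change 4.18 ± 0.23, edgeR adjusted p = 5.22e-10), and at 17.4 and 22.5 against 458 and 467 CPM in GL261 (4.54 ± 0.18, edgeR adjusted p = 8.15e-08). In BMDM its 3 normoxic libraries had 27.5, 34.2 and 26.8 CPM and its 3 hypoxic ones 418, 485 and 343 CPM (3.82 ± 0.18, edgeR adjusted p = 1.39e-06). The groups were again far apart. Sqstm1 in hypoxic co-cultured BMDM was at 2281, 5087 and 2128 CPM, the library numbered 2 being well above the others, against 856, 782 and 558 CPM in normoxia (2.11 ± 0.31, edgeR adjusted p = 0.000539). Wipi1 rose in co-cultured GL261 from 41.6 and 40.6 to 79.6 and 89.3 CPM (1.04 ± 0.13, edgeR adjusted p = 5.37e-05). Fundc1 passed in co-cultured BV2 (0.61 ± 0.15, edgeR adjusted p = 0.00162), a call lost without the hypoxic library numbered 2 (0.36, edgeR adjusted p = 0.0576).

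Co-culture itself moved few of the 10 genes, as the plot of co-culture and panobinostat effects shows. In normoxic BV2 1 of the 10 was higher (5.77% of all genes): Bnip3, at 36.5 and 73.2 CPM with GL261 against 23.8 and 26.6 CPM alone (log2 fold change 1.13 ± 0.22, edgeR adjusted p = 0.00408). The groups did not overlap, but the co-cultured libraries were themselves apart, and without the one numbered 2 the change was 0.52 (edgeR adjusted p = 0.0649, over a range of 7.45e-17 to 0.0649). GL261 RNA at its own monoculture level would add 0.0894 to 0.150 CPM of Bnip3 to these libraries. In both of them the hypoxia reference genes Vegfa, Slc2a1, Egln3, Ankrd37 and Ldha were also above both libraries of BV2 alone. Ndrg1 was below them, and Pdk1 and P4ha1 overlapped. The part of these genes in the Bnip3 result was not tested. In hypoxic BV2 1 gene was higher (8.13% of all genes), Sqstm1, at 1421 and 1601 CPM with GL261 against 1094 and 1186 CPM alone (0.41 ± 0.12, edgeR adjusted p = 0.0269). This call was lost without either hypoxic library from BV2 alone (0.28 with adjusted p = 0.259 and 0.40 with 0.0831) or the co-cultured library numbered 2 (0.26, edgeR adjusted p = 0.252). GL261 RNA would add 17.1 to 19.5 CPM of Sqstm1 here.

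In normoxic BMDM 1 of the 10 was higher with GL261 (1.57% of all genes), again Bnip3, at 27.5, 34.2 and 26.8 CPM against 17.4 and 15.2 CPM alone (log2 fold change 0.86 ± 0.18, edgeR adjusted p = 0.0469). The groups did not overlap, yet the adjusted p ranged up to 0.432 and the call was lost without any 1 of 7 libraries; the change itself stayed between 0.73 and 0.96. The hypoxia reference gene Vegfa was at 71.5, 104 and 48.8 CPM in normoxic BMDM with GL261 against 36.9 and 28.0 CPM alone. Slc2a1, Egln3, Ankrd37, P4ha1 and Ldha were likewise higher in every co-cultured library, while Pdk1 and Ndrg1 overlapped. The part of these genes in the Bnip3 result was not tested. In hypoxic BMDM none of the 10 passed by edgeR or DESeq2 (7.11% of all genes did in edgeR), and none had an unadjusted p under 0.05. GL261 from co-culture with BV2 gave 0 calls in normoxia (0.514% of all genes) and 0 in hypoxia (1.39%) by edgeR and by DESeq2, with 2 and 3 of the 10 at an unadjusted p under 0.05. In hypoxic GL261 the values for Bnip3 were 458 and 467 CPM with BV2 against 371 and 317 CPM alone (0.42 ± 0.15, edgeR adjusted p = 0.221), and for Sqstm1 1162 and 1051 against 815 and 836 CPM (0.42 ± 0.14, edgeR adjusted p = 0.179).

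**Figure D3:**
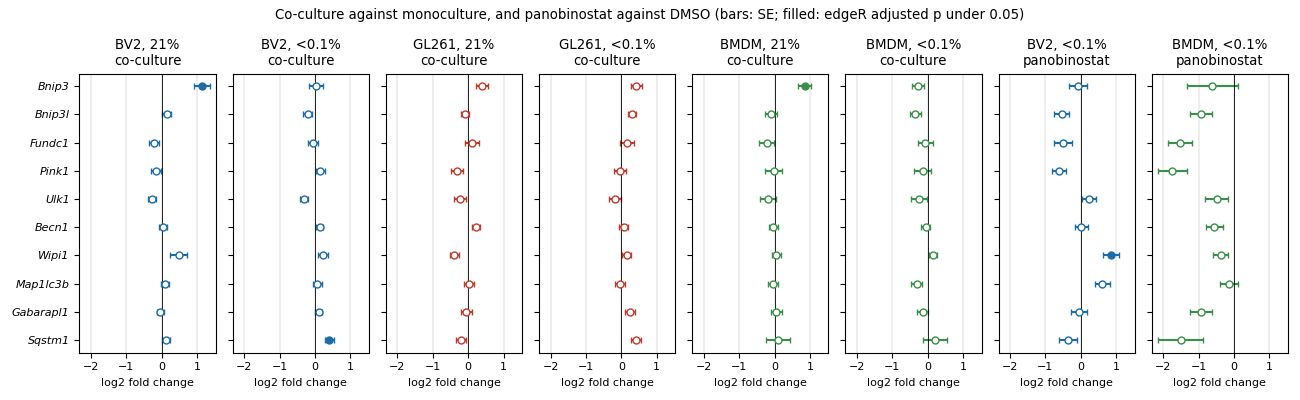
Log2 fold change of co-culture against monoculture (first 6 panels) and of panobinostat against DMSO in hypoxia (last 2 panels), with bars of 1 SE; filled points passed an edgeR adjusted p of 0.05. The filled points are Bnip3 in normoxic BV2 (1.13) and BMDM (0.86), Sqstm1 in hypoxic BV2 (0.41) and Wipi1 in BV2 with panobinostat (0.85).

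Whether co-culture altered the hypoxia effect was tested as an interaction. For Bnip3 the interaction was -1.10 ± 0.30 in BV2 (edgeR adjusted p = 0.0628, 0.00114 to 0.294 without 1 library) and -1.14 ± 0.25 in BMDM (edgeR adjusted p = 1.0, DESeq2 adjusted p = 0.0464), and in GL261 it was 0.04 ± 0.23. By edgeR 0 of the 10 genes passed in BV2 (2.19% of all genes), 0 in GL261 (0.0%) and 0 in BMDM (0.0%), with 1, 3 and 1 of the 10 at an unadjusted p under 0.05; DESeq2 called 0, 0 and 1. These interactions rest on the same libraries as the co-culture and hypoxia effects above, since they are computed from the groups that those effects compare.

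With DMSO, hypoxia raised 7 of the 10 genes in BV2 (17.2% of 13294 genes). Bnip3 was at 18.9 and 30.7 CPM in normoxia and 744 and 648 CPM in hypoxia (log2 fold change 4.81 ± 0.30, edgeR adjusted p = 2.54e-05), Pink1 at 19.4 and 21.9 against 101 and 88.5 CPM (2.20 ± 0.21, edgeR adjusted p = 0.00013), and Wipi1 at 2.16 and 1.39 against 28.0 and 25.4 CPM (3.91 ± 0.28, edgeR adjusted p = 5.82e-05). These groups did not overlap. Gabarapl1, at 71.1 and 84.0 against 130.0 and 92.3 CPM, did not pass (0.52 ± 0.23, edgeR adjusted p = 0.103), nor did Fundc1 (0.35 ± 0.25) or Becn1 (0.13 ± 0.18).

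In BMDM with DMSO only Bnip3l passed (0.469% of 14914 genes rose), at 82.2 and 64.3 CPM in normoxia and 498 and 354 CPM in hypoxia (log2 fold change 2.54 ± 0.32, edgeR adjusted p = 0.0488). Bnip3 was at 113 and 21.9 CPM in normoxia and 854 and 600.4 CPM in hypoxia (3.43 ± 0.79, edgeR adjusted p = 0.0873), and Sqstm1 at 385 and 495 against 5640 and 2027 CPM (3.12 ± 0.68, edgeR adjusted p = 0.0821). Both were apart between the groups but uneven within them. Pink1, Map1lc3b, Gabarapl1 and Wipi1 were also higher in both hypoxic libraries, with log2 fold changes of 2.00, 1.18, 1.50 and 1.04. They did not pass (edgeR adjusted p-values of 0.0751 to 0.0853). Such separation of 2 from 2 libraries also occurred for far smaller changes, as in Atg10 (0.21, edgeR adjusted p = 0.725). Its share over all genes is not given here. The median of the 10 was 1.34. The count is sensitive to the method: 7 of the 10 passed with DESeq2 and 7 with edgeR without the filter on low counts. The share of all genes called by these alternatives is not given here, so neither count can be set beside the 0.469% above. Leaving out 1 library also changed the count. Bnip3l itself missed the threshold when any 1 of 5 of the 6 BMDM libraries was left out (edgeR adjusted p = 0.103 to 0.229). Fibroblast markers summed to 19800 and 19400 CPM in the normoxic and to 2580 and 13300 CPM in the hypoxic libraries, and myeloid markers to 6760 and 5800 against 2340 and 4280 CPM; their part in these results was not tested.

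BV2 and BMDM with DMSO differed in their hypoxia effect for 1 of the 10 genes, where 0.458% of 15955 genes had the larger value in BV2. This was Wipi1, with a difference of 2.93 ± 0.33 in log2 fold change (edgeR adjusted p = 0.0256), which was lost without any 1 of 8 libraries (0.0537 to 0.108) while the difference stayed between 2.63 and 3.28. In normoxia 6 of the 10 were lower in BV2 than in BMDM (27.1% of all genes): Wipi1 (log2 difference -5.33 ± 0.27), Bnip3 (-1.62 ± 0.60), Ulk1 (-1.51 ± 0.26), Fundc1 (-1.08 ± 0.29), Pink1 (-0.95 ± 0.33) and Becn1 (-0.87 ± 0.19). Without the normoxic BMDM library numbered 1 the Bnip3 difference was -0.03 (edgeR adjusted p = 0.987), and 3 of the 10 passed. The fibroblast markers given above were at 12.2 to 17.9 CPM in normoxic BV2 of this experiment, and their part in the difference was not tested.

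Panobinostat in hypoxic BV2 raised 1 of the 10 genes (7.21% of all genes) and lowered none (7.39%). Wipi1 was at 51.1 and 45.1 CPM with panobinostat and 28.0 and 25.4 CPM with DMSO (log2 fold change 0.85 ± 0.23, edgeR adjusted p = 0.0374). The groups did not overlap, but the call was lost without any 1 of these 4 libraries (edgeR adjusted p = 0.0797 to 0.266). Map1lc3b was at 615 and 519 against 398 and 347 CPM (0.61 ± 0.22, edgeR adjusted p = 0.088), Pink1 at 58.4 and 66.4 against 101 and 88.5 CPM (-0.61 ± 0.20, edgeR adjusted p = 0.0661), and Bnip3l at 340 and 340 against 495 and 494 CPM (-0.54 ± 0.21, edgeR adjusted p = 0.107). These 3 stood apart without passing; a fit of the 2 groups alone called 4 genes, these and Wipi1. Bnip3 overlapped, at 678 and 636 against 744 and 648 CPM (-0.08 ± 0.26). The hypoxic DMSO libraries serve here as the control and in the DMSO hypoxia effect as the treated group, so the values of those comparisons are not independent.

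In hypoxic BMDM panobinostat gave no call by edgeR among the 10 genes or among all 14914 tested (0.0%), while 4 of the 10 had an unadjusted p under 0.05 and DESeq2 called 2, Fundc1 and Pink1. Pink1 was at 48.1 and 36.1 CPM with panobinostat and 189 and 92.5 CPM with DMSO (log2 fold change -1.74 ± 0.40, edgeR adjusted p = 0.0769). Fundc1 was at 11.5 and 10.4 against 40.2 and 23.3 CPM (-1.53 ± 0.34, edgeR adjusted p = 0.0744), and Sqstm1 at 1871 and 819 against 5640 and 2027 CPM (-1.51 ± 0.64, edgeR adjusted p = 0.204). All 3 were lower in both treated libraries. Of the 10, 10 had a log2 fold change below 0, with a median of -0.78 beside -0.03 over all genes. Myeloid markers summed to 603 and 1870 CPM in the treated libraries against 2340 and 4280 CPM with DMSO, and fibroblast markers to 8620 and 14100 against 2580 and 13300 CPM; their part in these values was not tested. The panobinostat effect did not differ past the threshold between BV2 and BMDM for any of the 10 by edgeR (0.0251% of all genes), with 4 at an unadjusted p under 0.05 and 1 called by DESeq2, Wipi1 (edgeR 1.21 ± 0.31, adjusted p = 0.223; DESeq2 1.13, adjusted p = 0.0303).

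The rest of the machinery was read from 73 further genes in 10 lists by role. In hypoxia 34 of 72 tested rose and 16 fell in BV2 alone, 35 of 71 rose and 5 fell in GL261 and 21 of 73 rose and 2 fell in BMDM, with medians of 0.22, 0.34 and 0.23. Of all genes tested, 30.9% rose and 31.0% fell in BV2, 23.2% and 21.4% in GL261, and 13.3% and 10.6% in BMDM, and the counts by list are to be read beside these shares. In the ULK1 complex and its regulators 5 of 8 rose and 1 fell in BV2, 6 rose and 1 fell in GL261, and 4 rose and none fell in BMDM. The genes that fell were Mtor, the kinase of mTORC1, in BV2 (-0.72 ± 0.11, edgeR adjusted p = 3.21e-05) and Ulk2, the second ULK kinase, in GL261 (-0.59 ± 0.19, edgeR adjusted p = 0.0244). Each rose in the other line, Mtor in GL261 (0.47 ± 0.16, edgeR adjusted p = 0.0303) and Ulk2 in BV2 (1.06 ± 0.12, edgeR adjusted p = 1.61e-06). Both genes are outside the rule for named genes and were chosen after their values were seen. The 3 other ATG8 family genes, Map1lc3a, Gabarap and Gabarapl2, all rose in BV2, 2 of them rose in BMDM and none passed by edgeR in GL261, where 1 had an unadjusted p under 0.05. Ddit4, an inhibitor of mTORC1 signalling and a hypoxia-response gene, rose most of the named genes in all 3: from 9.33 ± 1.29 to 198 ± 0.641 CPM in BV2 (SD, n = 2), from 501 ± 40.1 to 1870 ± 149 CPM in GL261 and from 8.80 ± 1.99 to 136 ± 9.29 CPM in BMDM (log2 fold changes 4.41, 1.90 and 3.95). Atg13, a subunit of the ULK1 complex, went from 91.5 ± 5.32 to 462 ± 1.13 CPM in BV2 (2.33 ± 0.11, edgeR adjusted p = 1.48e-10).

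Cargo receptors other than Sqstm1 rose in 5 of 7 cases in each of the 3 cell types, with none lower. Optn, the cargo receptor optineurin, went from 2.68 ± 0.0212 to 14.8 ± 0.526 CPM in BV2 from co-culture (log2 fold change 2.46 ± 0.19, edgeR adjusted p = 1.6e-08). Genes of phagophore expansion, the growth of the forming membrane, rose in 6 of 8 cases in BV2 with 1 lower, 7 of 8 in GL261 and 3 of 8 in BMDM. The class III lipid kinase complex other than Becn1 rose in 4 of 7 cases in BV2 and 5 of 7 in GL261, among them Uvrag (48.8 ± 1.43 to 112 ± 22.1 CPM, log2 fold change 1.21 ± 0.17), and in 0 of 7 in BMDM by edgeR, 2 having an unadjusted p under 0.05. In GL261 from co-culture 7 of 7 rose, beside 26.8% of all genes.

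In the PINK1-Parkin pathway other than Pink1, 5 of 13 were higher and 6 lower in BV2 (30.9% and 31.0% of all genes), 5 of 12 higher and 2 lower in GL261 (23.2% and 21.4%), and 1 of 13 higher and none lower in BMDM (13.3% and 10.6%). Pgam5, a mitochondrial phosphatase, fell in BV2 from 69.9 ± 0.753 to 31.7 ± 0.158 CPM (-1.14 ± 0.11, edgeR adjusted p = 2.96e-07) and rose in GL261 from 53.1 ± 3.74 to 76.9 ± 4.85 CPM (0.53 ± 0.12, edgeR adjusted p = 0.00444). Vdac1, the channel of the outer mitochondrial membrane, fell in GL261 from 301 ± 11.1 to 130.0 ± 8.05 CPM (-1.20 ± 0.13, edgeR adjusted p = 4.11e-05), rose in BV2 (0.84 ± 0.11, edgeR adjusted p = 4.53e-06) and in BMDM alone (1.75 ± 0.21, edgeR adjusted p = 0.000371), and rose in co-cultured BMDM from 123 ± 11.4 to 381 ± 92.4 CPM (1.63 ± 0.17, n = 3, edgeR adjusted p = 8.4e-05). Phb2, an inner-membrane mitophagy receptor, fell in BV2 from 414 ± 29.6 to 155 ± 18.4 CPM (-1.42 ± 0.12, edgeR adjusted p = 6.39e-08), in GL261 from 205 ± 26.9 to 132 ± 8.68 CPM (-0.64 ± 0.13, edgeR adjusted p = 0.00275) and in BMDM from 160.0 ± 3.06 to 108 ± 2.61 CPM (-0.57 ± 0.17, edgeR adjusted p = 0.0329). Tecpr1, which acts in fusion of autophagosomes with lysosomes, rose in BMDM from 111 ± 1.07 to 464 ± 61.8 CPM (2.06 ± 0.30, edgeR adjusted p = 0.00116) and in BV2 by a log2 fold change of 1.43 ± 0.14 (edgeR adjusted p = 1.69e-07), without passing in GL261 (0.19 ± 0.14). Other genes with the most extreme called changes were Tomm7, a subunit of the mitochondrial import channel, lower in BV2 from co-culture (-0.97) and in GL261 (-1.15 alone, -1.50 from co-culture), Rb1cc1 of the ULK1 complex, higher in co-cultured GL261 (1.59), and the fission enzyme Dnm1l, lower in BMDM (-0.65). In co-cultured BMDM Plekhm1 (-0.95) and Snap29 (-0.78), which act in fusion with lysosomes, fell. With panobinostat in hypoxic BV2, Gabarapl2, an ATG8 gene, rose (0.80 ± 0.21, edgeR adjusted p = 0.0309) and Rptor, a subunit of mTORC1, fell (-0.88 ± 0.20, edgeR adjusted p = 0.0184). In the same cells, Calcoco1, a receptor in selective autophagy, rose from 221 ± 12.8 to 445 ± 1.63 CPM (1.01 ± 0.20, edgeR adjusted p = 0.0126), and Ulk2 fell from 36.2 ± 3.42 to 16.1 ± 5.57 CPM (-1.17 ± 0.27, edgeR adjusted p = 0.0193).

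**Figure D4:**
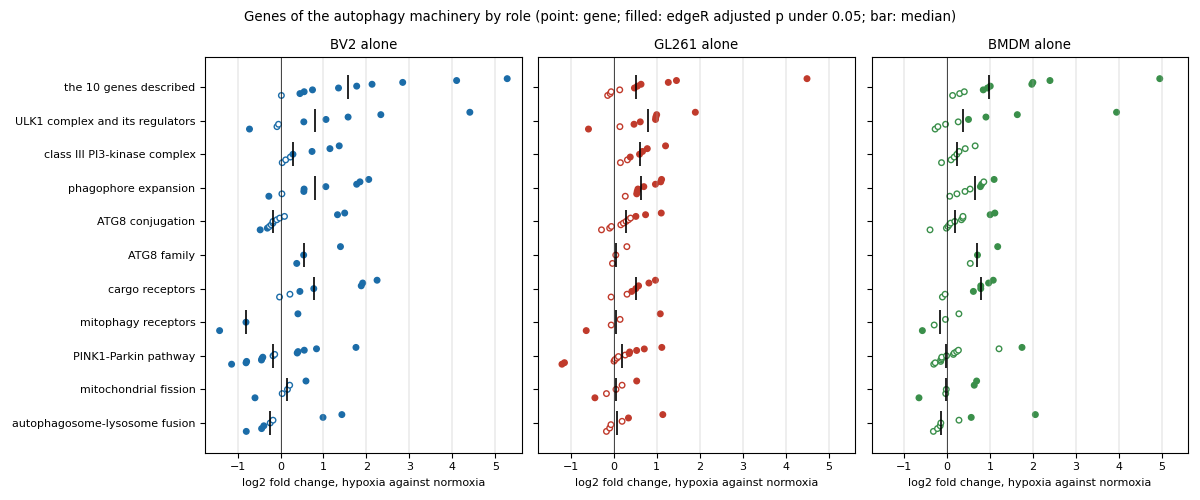
Log2 fold change of hypoxia against normoxia for the 10 genes described and for 10 lists of further genes, in BV2, GL261 and BMDM grown alone; points are genes, filled where the edgeR adjusted p is under 0.05, and bars are list medians. Cargo receptors and the ULK1 complex lie mostly above 0 in each panel, while the PINK1-Parkin list spreads to both sides.

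The genes whose pattern over the 18 group means was most like that of Bnip3, among 7238 genes searched, were Ankrd37 (Pearson r = 0.998), Hk2 (0.988) and Arih2 (0.987). For Bnip3l they were Egln1 (0.997), Atg13 (0.995) and Smim14 (0.990), for Sqstm1 Dnajb9 (0.986), Rab5a (0.983) and Ghitm (0.983), and for Gabarapl1 Sqstm1 (0.977), Zbtb21 (0.971) and Tbc1d15 (0.964). Log2 CPM were centred within each of the 5 sets of libraries that were fitted together, and the points share libraries, scaling and the contrast of hypoxia with normoxia, so r is a description. Among the 10 genes themselves, Bnip3 ran closest to Bnip3l (0.968) and Sqstm1 (0.953) and least like Fundc1 (0.338) and Becn1 (0.363).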

How the data were processed

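Poly(A) RNA from 38 mouse cell cultures in 18 groups was sequenced with a stranded kit, per the labels' protocols. The authors deposited raw read counts per gene in 3 tables. The submitters' processing notes name the mm10 genome, Trimmomatic 0.36, STAR 2.6, Picard 2.17.1, SAMtools, HTSeq 0.9.1 and deepTools, without role or order; the annotation and strand setting of the counting are not given in the sources used here. Symbols were found for 55141 of 55487 identifiers. Each cell type within a table was fitted with all its groups in edgeR 4.0.16 (R 4.3.3). The quasi-likelihood F test, TMM scaling and filterByExpr with a minimum count of 10 and total of 15 were used. Comparisons of BV2 with GL261 came from a joint fit of both lines (16882 genes). Those of BV2 with BMDM came from a joint fit of the panobinostat experiment (15955 genes). Each joint fit had its own filter and scaling, so its differences need not equal those between the separate effects. P-values were adjusted by Benjamini-Hochberg over all genes tested, with a threshold of 0.05, and the standard error is the log2 fold change divided by the square root of F. P-values measure only the spread between these libraries, which may be technical. Alternatives were DESeq2 1.42.0, its size factors, other filters, a replicate block, fits of the compared groups alone, leaving out each library, and removal of genes higher in the partner. The 10 genes and the role lists were chosen with earlier results of these data known; from the lists, each hypoxia and panobinostat comparison names at most 2 called genes in each direction, those with the largest change if their mean log2 CPM reached 3 and the groups did not overlap.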

Additional observations from a re-analysis of the deposited data

Results flagged for a closer look

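For 6 genes the hypoxia effect differed between BV2 and GL261 grown alone by a test of the difference itself (edgeR adjusted p under 0.05). The difference in log2 fold change, BV2 minus GL261, was 3.72 for Wipi1, 2.31 for Pink1, 1.67 for Bnip3l, 1.51 for Ulk1, 0.88 for Bnip3 and 0.69 for Fundc1. For Wipi1 the effect with DMSO also differed between BV2 and BMDM, by 2.93.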

How the results depend on the processing

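Values here are counts of the 10 genes past the threshold unless named otherwise. The shares of all genes called under each alternative, here and above, are not given. These counts therefore describe only how the results shift with the method. DESeq2 gave 7 for hypoxia in BMDM with DMSO (1 by edgeR), 2 for panobinostat in BV2 (1), 2 for panobinostat in BMDM (0), 1 for the BMDM interaction (0) and 1 for the difference of the panobinostat effect between BV2 and BMDM (0). Without a filter the counts were 7 for hypoxia in BMDM with DMSO, 3 for panobinostat in BMDM, 2 for co-culture in hypoxic BV2 (1), 2 for the hypoxia difference between BV2 and BMDM (1), and 1 each for the BV2 and BMDM interactions. A fit of the compared groups alone gave 4 for panobinostat in BV2, 0 for hypoxia in BMDM with DMSO and 0 for the hypoxia difference between BV2 and BMDM. DESeq2 size factors in edgeR gave 0 for hypoxia in BMDM with DMSO. Co-culture in normoxic BMDM gave 0 with genes of at least 5 CPM and 0 without genes higher in the partner. With GCGTG counted beside ACGTG, 5 promoters held a match (1 with ACGTG alone).

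The labels do not say that a replicate number marks a shared culture or day, and same-numbered libraries correlated in their deviations by 0.033 on average in BV2, 0.18 in GL261, 0.15 in BMDM and, with DMSO or panobinostat, 0.30 in BV2 and 0.45 in BMDM. With the replicate number as a block the count was 7 for hypoxia in BMDM with DMSO, 4 for panobinostat in BV2, 3 for panobinostat in BMDM and 1 for the BV2 interaction.

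Leaving out 1 library gave 8 to 9 for hypoxia in BV2, alone or from co-culture, 5 to 6 in GL261 likewise, 6 to 7 in BMDM alone, 7 to 8 in BMDM from co-culture, 7 to 7 in BV2 with DMSO and 0 to 4 in BMDM with DMSO. The range was 0 to 1 for co-culture in normoxic and in hypoxic BV2, for the BV2 interaction and for co-culture in normoxic BMDM, and 0 to 0 for co-culture in hypoxic BMDM, the BMDM interaction and the 3 GL261 co-culture results. It was 0 to 4 for panobinostat in BV2, 0 to 0 in BMDM and 0 to 0 for their difference, 4 to 6 for the hypoxia difference between BV2 and GL261, 6 to 8 for their normoxic levels, 0 to 1 for the hypoxia difference between BV2 and BMDM and 3 to 6 for their normoxic levels. The cause of these shifts was not tested. With the related genes added to Bnip3, chosen after seeing the data, the normoxic Bnip3 difference between BV2 and GL261 was -0.0432 (log2) and did not pass. Leaving out both co-culture BMDM libraries numbered 3, also chosen after seeing the data, changed no call among 50 results. With 2 or 3 libraries a group, small changes such as those of Fundc1 and Becn1 are at the limit of what these data resolve.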
